A study of Mus musculus with 10 samples.

Results

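Semaphorins, plexins and neuropilins are the ligands, receptors and co-receptors of one guidance system for growing axons, and their RNA was examined in dorsal root ganglia (DRG) of mouse embryos with and without *Dach1*. Members were every gene with a symbol of the form *Sema3* to *Sema7* plus a letter, *Plxna1* to *Plxna4*, *Plxnb1* to *Plxnb3*, *Plxnc1*, *Plxnd1*, *Nrp1* or *Nrp2*. They were 31 of the 55414 genes listed in each library, namely 20 semaphorins, 9 plexins and 2 neuropilins, and all 31 passed the filter on low counts (at least 10 counts in at least 5 libraries). Whole DRG of E18.5 embryos were sequenced as bulk RNA, with 5 libraries titled control and 5 titled *WD1* cKO. *WD1* cKO embryos carried Wnt1Cre together with Dach1 flox/flox. Their littermate controls were Dach1 flox/flox without Cre, so the floxed allele was shared by both groups. The titles were followed because the genotype given in the labels has the groups the other way round. Wnt1Cre acts in the neural crest, from which the neurons and glia of DRG descend, while blood and endothelial cells of the ganglion have another origin. The mice that gave the floxed allele were on a mixed C57Bl/6J and CD1 background, the other mice were C57Bl/6J, and the labels do not give the sex of the embryos. *Xist*, the RNA expressed from the inactive X chromosome of females, was at 3.39 to 4.85 CPM in 4 libraries (3 control, 1 *WD1* cKO) and at 958.2 to 1169 CPM in the other 6 (2 control, 4 *WD1* cKO).

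Semaphorins are secreted (class 3), span the membrane (classes 4, 5 and 6) or are tied to it by a lipid anchor (class 7). Plexins are their receptors and carry inside the cell a GTPase-activating domain that acts on small Ras-family GTPases. Most class 3 semaphorins do not bind a plexin alone and need a neuropilin as the ligand-binding partner. In the developing somatosensory system, repulsion by Sema3A through a complex of neuropilin and A plexins is known to keep axons of DRG neurons out of territories where they should not grow.

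*Dach1*, the targeted gene, was lower in every library titled *WD1* cKO, between 19.1 and 20.8 CPM (counts brought to a common library size by edgeR's TMM method), than in every control library, between 35.1 and 41.6 CPM. It fell by 0.92 on the log2 scale with a standard error of 0.050 (adjusted p = 5.48e-06 in the quasi-likelihood test of edgeR, Benjamini-Hochberg adjustment). Counts cover the whole gene, so reads from transcripts that lack only the floxed exon would still count, as would intact RNA of cells that do not descend from the neural crest. The part of either in the remaining level was not tested. The total count was 20465132 to 27528784 in control and 19757596 to 34796562 in *WD1* cKO libraries. Among 11 marker lists, the summed level of 8 neuronal genes was 7735 to 8791 CPM in control and 8171 to 9062 CPM in *WD1* cKO embryos, and that of 7 glial genes was 909.8 to 1063 and 878.5 to 1152 CPM, so the labelled neurons and glia were both present. Markers of spinal cord stood apart in control replicate 3, with a sum of 19.7 CPM against 0.843 to 1.79 CPM in the other 9 libraries. Of the 7 spinal cord genes, 5 were highest in this library. The same library was also below the range of the other 9 for the neuronal sum (7735 against 8171 to 9062 CPM) and the proprioceptor sum (490.2 against 569.2 to 705.5 CPM). It was above that range for the A-LTMR sum (349.1 against at most 329.2 CPM), the endothelial sum (277.5 against at most 272.3 CPM) and the connective tissue sum (5835 against at most 5445 CPM). Single genes did not all follow the sum of their list. Of the neuronal genes, *Nefl* was lowest in this library (1406 CPM) but *Pou4f1* was highest (174.0 CPM). Of the A-LTMR genes, *Ntrk2* was highest (235.8 CPM), while *Shox2*, at 14.3 CPM, lay within the range of the other 9. Blood markers were 389.9 to 1061 CPM in control replicates 1 to 3, 58.9 to 67.4 CPM in control replicates 4 and 5, 189.3 to 397.3 CPM in *WD1* cKO replicates 1 to 3, and 64.9 to 80.2 CPM in *WD1* cKO replicates 4 and 5. Since these are bulk libraries, fewer cells of a type and less RNA per cell cannot be told apart in any value given here.

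Levels of different genes were compared as CPM per kilobase of merged exon length, in control embryos. On this scale the whole family summed to 221.1 ± 8.12 for semaphorins, 182.1 ± 2.32 for plexins and 34.1 ± 1.72 for neuropilins (SD, n = 5), or 50.5%, 41.6% and 7.81% of the family. Among the ligands, *Sema4f*, a transmembrane class 4 semaphorin, was the highest member at 58.3 ± 4.60 CPM per kb (SD, n = 5). This was at the 96.6th percentile of those of the 17490 genes tested that had an exon length. *Sema3a*, the secreted repellent of many DRG axons, was the lowest at 0.348 ± 0.051 CPM per kb (SD, n = 5), at the 9.36th percentile. *Sema4f* was 168-fold above *Sema3a* per length of merged exons, and 92.9-fold with the longest annotated transcript as length.

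On merged exon length, receptors filled the next 4 places of the order, whereas with the longest transcript *Nrp1* was at place 2, *Plxnd1* at 3, *Plxna3* at 4 and the ligand *Sema4g* at 5, ahead of *Plxna4* at 6. *Plxnd1*, the receptor that binds Sema3E without a neuropilin, followed at 45.7 ± 1.50 CPM per kb, and its 5 control libraries lay below those of *Sema4f* and above those of *Plxna3*. *Plxna3* and *Plxna4*, both A plexins of the Sema3A receptor complex, had 30.7 ± 1.29 and 28.6 ± 1.20 CPM per kb, and *Nrp1*, the neuropilin that binds Sema3A, had 25.5 ± 1.85 CPM per kb (SD, n = 5 each). *Plxna3* and *Plxna4* overlapped, and so did *Plxna4* and *Nrp1*. *Nrp2*, which binds Sema3F, had 8.68 ± 0.583 CPM per kb, so *Nrp1* was 2.93-fold above it, and 4.47-fold with the longest transcript as length. Within the A plexins *Plxna4* was 2.89-fold above *Plxna1*, the lowest of the 4.

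The middle of the order was a run of 15 members from *Plxnb2* at 19.2 to *Nrp2* at 8.68 CPM per kb in which each neighbour overlapped the next. It held, from high to low, *Plxnb2*, *Sema6d*, *Sema4g*, *Sema4d*, *Sema3f*, *Plxnb1*, *Plxna2*, *Sema3b*, *Sema7a*, *Sema4b*, *Sema3c*, *Plxnc1*, *Sema4c*, *Plxna1* and *Nrp2*. This run held both *Sema4d* and its receptor *Plxnb1*, and both *Sema7a* and its receptor *Plxnc1*. Other such pairs lay far apart, *Sema3e* at 2.30 and *Plxnd1* at 45.7 CPM per kb, and *Sema3a* at 0.348 and *Nrp1* at 25.5 CPM per kb. *Plxnb3* followed apart at 7.58 CPM per kb. Below it, *Sema6c*, *Sema6a*, *Sema3d*, *Sema5a* and *Sema3g* lay between 5.45 and 4.20 CPM per kb, and *Sema4a*, *Sema5b*, *Sema3e* and *Sema6b* between 2.82 and 2.29 CPM per kb, each run again overlapping among neighbours. Gaps with no shared values stood between *Nrp1* and *Plxnb2*, *Nrp2* and *Plxnb3*, *Plxnb3* and *Sema6c*, *Sema3g* and *Sema4a*, and *Sema6b* and *Sema3a*. With the longest annotated transcript as length, *Sema4f* stayed first and *Sema3a* last, 10 of 31 members kept their place, and *Plxnb2* and *Nrp2* moved the farthest, by 5 places.

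**Figure D1:**
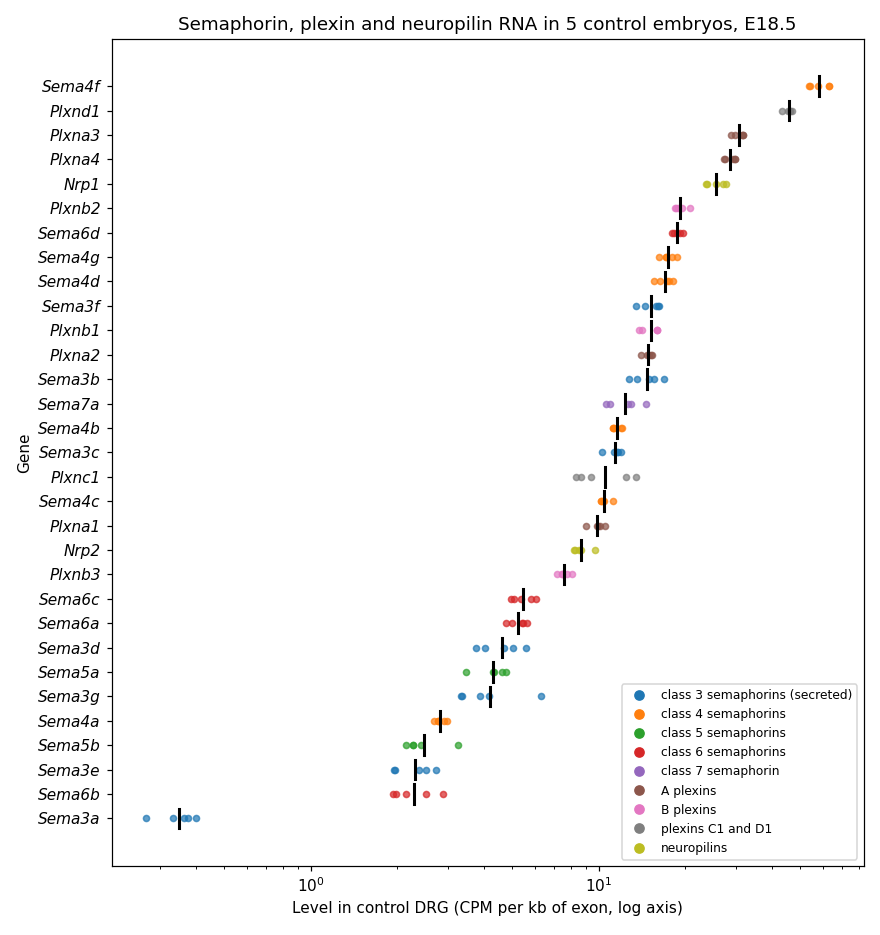
Level of each member in 5 control embryos on a log axis, in TMM-scaled CPM per kilobase of exon, with a point for each library, a black bar at the mean and colours for the role groups. *Sema4f* (58.3) and *Plxnd1* (45.7) stand above the rest, a run of overlapping genes fills the middle, and *Sema3a* (0.348) stands apart at the bottom.

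By class, class 4 semaphorins and A plexins had the largest shares per length. The 6 class 4 semaphorins made 26.9% of the family's summed level per length, the 4 A plexins 19.2%, plexins C1 and D1 12.8% and the 7 secreted class 3 semaphorins 12.1%. B plexins made 9.59%, neuropilins 7.81%, class 6 semaphorins 7.26%, the class 7 semaphorin 2.82% and class 5 semaphorins 1.54%. In *WD1* cKO embryos these shares were 26.3%, 19.3%, 12.7%, 12.3%, 9.73%, 8.02%, 7.44%, 2.50% and 1.66% in the same order, which are descriptions without a test. With the longest transcript as length, neuropilins made 13.8% of the family in control embryos, after class 4 semaphorins (28.3%) and A plexins (16.4%).

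Promoter sequence was taken from RefSeq on GRCm38.p6, as the 250 bases before each annotated start, and is shown for the members at both ends of the order of levels (*Sema4f* and *Sema3a*), the member with the lowest fold change (*Sema7a*) and the plexin with the widest spread (*Plxnc1*). Sequences read 5′ to 3′ on the strand of the gene, and capitals mark the GC box GGGCGG or its reverse complement CCGCCC.
Sema4f, chr6:82939770-82940019, minus strand: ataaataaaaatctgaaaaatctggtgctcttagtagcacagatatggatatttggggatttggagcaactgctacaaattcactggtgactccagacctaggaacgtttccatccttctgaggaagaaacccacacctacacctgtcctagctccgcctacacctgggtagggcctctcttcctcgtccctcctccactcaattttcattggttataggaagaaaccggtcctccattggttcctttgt
Sema3a, chr5:13396534-13396783, plus strand: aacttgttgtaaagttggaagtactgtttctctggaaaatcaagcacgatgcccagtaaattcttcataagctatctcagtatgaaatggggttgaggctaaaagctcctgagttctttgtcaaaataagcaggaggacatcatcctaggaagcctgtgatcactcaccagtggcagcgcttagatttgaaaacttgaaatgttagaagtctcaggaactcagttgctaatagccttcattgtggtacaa
Sema7a, chr9:57939862-57940111, plus strand: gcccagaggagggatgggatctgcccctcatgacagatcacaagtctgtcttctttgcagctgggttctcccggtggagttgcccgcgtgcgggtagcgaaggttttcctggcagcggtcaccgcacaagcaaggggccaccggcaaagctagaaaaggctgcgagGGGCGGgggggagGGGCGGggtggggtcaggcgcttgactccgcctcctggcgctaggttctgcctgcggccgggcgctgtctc
Plxnc1, chr10:94944846-94945095, minus strand: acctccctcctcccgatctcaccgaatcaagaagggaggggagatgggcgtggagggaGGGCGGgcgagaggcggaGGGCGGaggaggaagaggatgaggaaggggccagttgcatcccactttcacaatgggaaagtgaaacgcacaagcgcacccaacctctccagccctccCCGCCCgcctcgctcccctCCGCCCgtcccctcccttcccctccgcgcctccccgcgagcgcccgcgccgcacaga

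*Sema4f* and *Sema3a*, the highest and the lowest member, both lacked these letters in this window, with 46.0% and 40.8% G or C and 4 and 2 CpG dinucleotides. *Sema7a* held 2 matches with 66.4% G or C and 17 CpG, and *Plxnc1* 4 matches with 68.8% G or C and 22 CpG. Of 31 members, 26 had an entry, with 37 starts in all, and 27 of these 37 windows (73.0%) held at least 1 GC box, against 32.7% of the 32851 windows of all genes. The median G or C content was 64.0% for the members and 52.4% for all genes. TATAAA or its reverse complement TTTATA was found in 0 of the 37 windows and in 12.4% of all windows. The windows of all genes include those of genes that did not pass the filter on low counts, which all 31 members passed. A comparison with windows of genes that passed was not made. No entry was matched for *Sema3b*, *Sema3f*, *Sema6a*, *Plxna1* and *Plxna4*. A match of letters is a description, not a site of binding, and windows of several starts of one gene can overlap.

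The design asks whether loss of *Dach1* from neural crest onward changed this guidance system at E18.5. None of the 31 members passed an adjusted p-value of 0.05 in the quasi-likelihood test of edgeR (Benjamini-Hochberg adjustment), and DESeq2's Wald test also gave 0. Over all genes tested 7 passed (0.04%). Without adjustment 1 member, *Sema7a*, was lower with a p-value under 0.05 in either tool (all genes in edgeR 2.38%), and 0 were higher (all genes 2.12%). With the study's cut-off, an unadjusted p-value under 0.005 and a log2 fold change of more than 0.15 in either direction, the count was 0 (all genes 0.383%). The 2 groups of libraries were apart, with no overlap, for 0 members (all genes 0.566% lower and 0.497% higher in *WD1* cKO). The fitted log2 fold changes ran from -0.22 for *Sema7a* to 0.14 for *Sema6b*, with 21 below and 10 above 0 and a median of -0.028, against 49.9% below 0 and a median of 0.00022 over all genes tested.

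The size of change in the RNA of the whole ganglion that these libraries leave possible is given by the 95% confidence intervals of the fit. They do not bound a change within a part of the cells, such as the TrkB-expressing neurons that mainly held Dach1 at E18.5 in the paper. For all 31 members the interval lay within 0.5 on the log2 scale in either direction, which is at most 41.4% higher or 29.3% lower. It lay within 0.3 for 26, within 0.2 for 16 and within 0.15 for 9 members. Standard errors ran from 0.038 for *Plxnd1* to 0.175 for *Sema3g*, with a median of 0.057. The widest intervals were those of *Sema3g*, from -0.48 to 0.28, and *Plxnc1*, from -0.36 to 0.25.

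**Figure D2:**
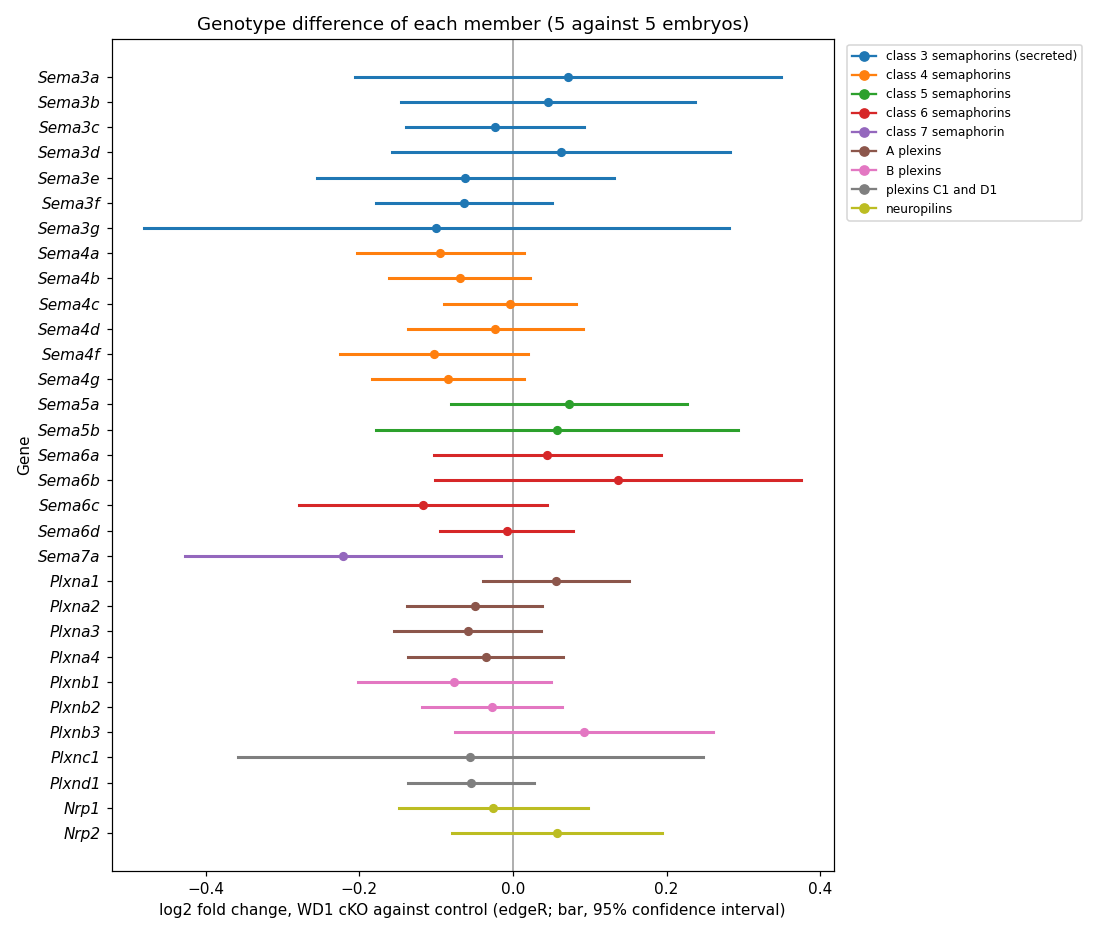
Log2 fold change of each member in *WD1* cKO against control embryos from edgeR, with its 95% confidence interval as a bar and colours for the role groups (5 against 5 embryos). Points lie between -0.22 (*Sema7a*) and 0.14 (*Sema6b*), and the interval of *Sema7a* is the one that leaves out 0, before adjustment over all genes.

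*Sema7a* (ENSMUSG00000038264, chromosome 9) encodes the lipid-anchored semaphorin that binds plexin C1 and integrins and is known to promote axon growth. Its level was 35.1, 36.2, 42.8, 41.6 and 48.2 CPM in control replicates 1 to 5 and 31.6, 37.2, 30.2, 38.8 and 37.4 CPM in *WD1* cKO replicates 1 to 5. The 3 highest values were controls and the 2 lowest were *WD1* cKO, but the groups overlapped between 35.1 and 38.8 CPM. The mean was 40.8 ± 5.33 CPM in control and 35.0 ± 3.86 CPM in *WD1* cKO embryos (SD, n = 5 each). The log2 fold change was -0.22 (standard error 0.095, 95% confidence interval -0.43 to -0.015, unadjusted p = 0.0374, adjusted p = 1.00 in the quasi-likelihood test of edgeR, Benjamini-Hochberg adjustment). A two-sided exact permutation test of mean log2 CPM gave p = 0.0873, where the smallest value that 5 against 5 libraries allow is 0.00794. Over the 19 alternative fits the log2 fold change stayed between -0.27 and -0.15 and the adjusted p from edgeR or DESeq2 between 0.554 and 1.00. When single libraries were left out, the unadjusted p from edgeR was under 0.05 in 5 of 10 fits, at the lowest 0.0141 without control replicate 1. It was 0.0733, 0.0638 and 0.107 without control replicates 3, 4 and 5, and 0.0872 and 0.0943 without *WD1* cKO replicates 1 and 3. With the level of *Xist* as a covariate the log2 fold change was -0.22 and the unadjusted p from edgeR 0.0630. The unadjusted p from edgeR was 0.00891 with replicates 1 to 3 against 4 and 5 as a covariate (adjusted p = 0.554). It was 0.0117 with the replicate number as a block (adjusted p = 0.612). *Plxnc1*, its receptor, had a log2 fold change of -0.055 (95% confidence interval -0.36 to 0.25).

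The 7 secreted class 3 semaphorins, ligands of neuropilins or of plexin D1, had 4 fold changes below and 3 above 0, with a median of -0.024, and 0 passed the test. *Sema3f*, the Nrp2 ligand and the highest of the class per length, was measured at 83.2, 82.1, 83.9, 75.4 and 69.8 CPM in control and 77.8, 78.7, 75.2, 75.5 and 70.2 CPM in *WD1* cKO embryos. The control replicates 1 to 3 were the 3 highest of the 10 libraries, while the other controls lay among or below the *WD1* cKO values. Its log2 fold change was -0.064 (95% confidence interval -0.18 to 0.051). *Sema3a* itself had 3.71 to 5.55 CPM in control and 4.32 to 6.13 CPM in *WD1* cKO embryos, from 76 to 185 counts a library, and a log2 fold change of 0.072 (95% confidence interval -0.21 to 0.35). *Sema3e*, the ligand of plexin D1, had a log2 fold change of -0.062, and those of *Sema3b*, *Sema3c*, *Sema3d* and *Sema3g* were 0.046, -0.023, 0.062 and -0.10.

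The 6 class 4 semaphorins, transmembrane ligands of B plexins among others, all had fold changes below 0, from -0.10 to -0.0040 with a median of -0.077, and 0 of 6 passed the test. *Sema4f* was measured at 284.2, 286.5, 304.7, 333.2 and 334.3 CPM in control and 289.7, 299.4, 266.4, 304.1 and 277.6 CPM in *WD1* cKO embryos. Its highest values were control replicates 4 and 5, its lowest were *WD1* cKO replicates 3 and 5, and the other 6 libraries were intermixed. The log2 fold change was -0.10 (95% confidence interval -0.23 to 0.020). *Sema4a* was -0.095, *Sema4g* -0.085, *Sema4b* -0.069, *Sema4d* -0.023 and *Sema4c* -0.0040. For *Sema4a* the groups overlapped, and the unadjusted p was 0.0826 in edgeR and 0.0238 in the exact permutation test. That permutation p is not adjusted for the number of members. The sign of *Sema4c* and *Sema4d* turned under some alternatives, to 0.021 and 0.019 with the level of *Xist* as a covariate.

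Class 5 and class 6 semaphorins, also transmembrane ligands and known to signal through A plexins, had fold changes on both sides of 0. *Sema5a* was at 86.1, 80.8, 79.9, 64.4 and 88.8 CPM in control and 87.0, 86.0, 82.7, 80.0 and 84.5 CPM in *WD1* cKO embryos, where control replicate 4 was the lowest library and all others overlapped. Its log2 fold change was 0.073 (95% confidence interval -0.081 to 0.23), and that of *Sema5b* was 0.057. *Sema6d* was at 206.3, 192.8, 189.5, 197.3 and 202.8 CPM in control and 185.9, 199.0, 195.5, 211.7 and 191.0 CPM in *WD1* cKO embryos. These values were intermixed, and the log2 fold change of -0.0083 (95% confidence interval -0.095 to 0.078) was among the smallest of the family. *Sema6b* had the highest fold change of the 31, 0.14 on the log2 scale (unadjusted p = 0.235 in edgeR, adjusted p = 1.00 with Benjamini-Hochberg adjustment), at 7.66 to 11.4 CPM in control and 9.06 to 10.8 CPM in *WD1* cKO embryos. *Sema6a* was at 0.045 and *Sema6c* at -0.12.

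**Figure D3:**
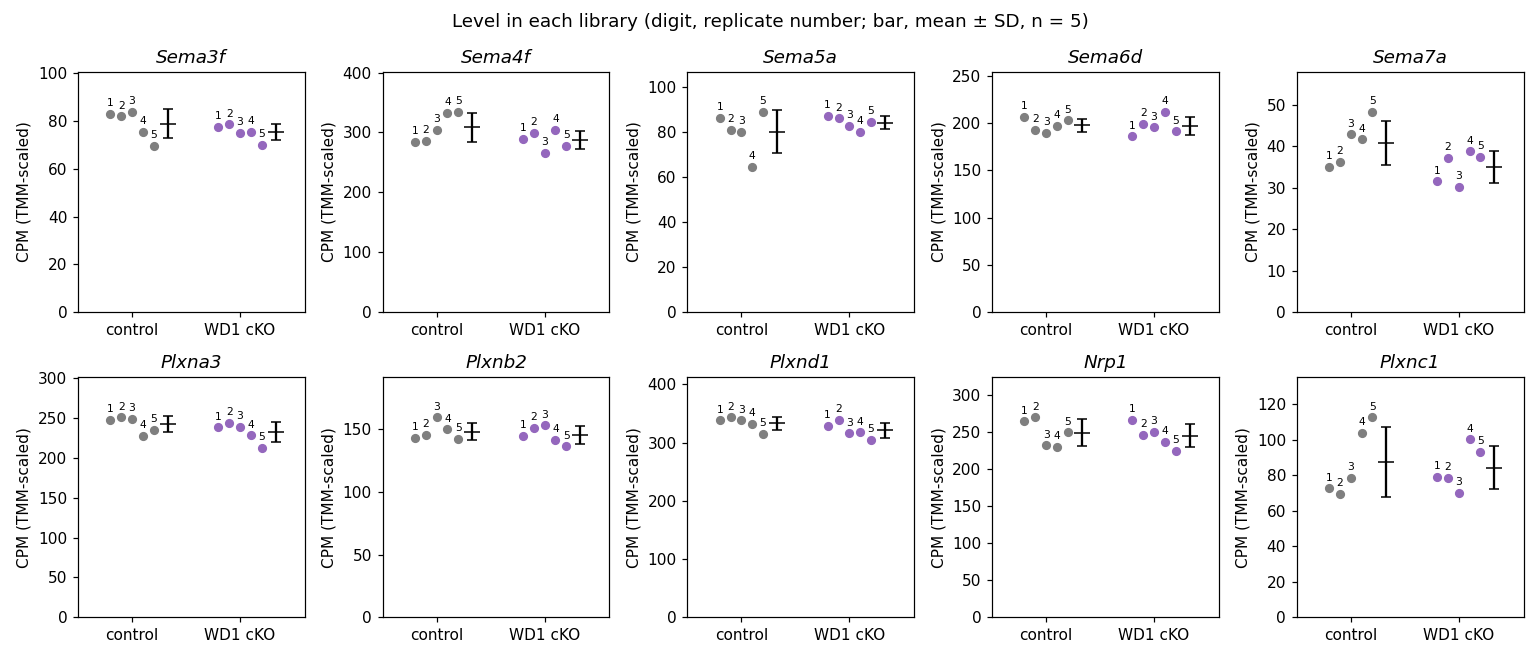
Level in each library for the highest member per length of each of the 9 role groups and for *Plxnc1*, in TMM-scaled CPM on axes that start at 0. Digits give the replicate number and bars the mean ± SD (n = 5); in every panel the control and *WD1* cKO libraries overlap, and in *Plxnc1* replicates 4 and 5 lie above replicates 1 to 3 in both groups.

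Of the 9 plexins, 7 had fold changes below and 2 above 0, with a median of -0.050, and 0 passed the test. *Plxna3* was at 247.0, 250.6, 248.9, 227.1 and 235.0 CPM in control and 238.0, 243.5, 238.6, 227.8 and 212.3 CPM in *WD1* cKO embryos, where *WD1* cKO replicate 5 was the lowest and the rest overlapped. Its log2 fold change was -0.059 (95% confidence interval -0.15 to 0.037). *Plxna4* was at -0.036, *Plxna2* at -0.050 and *Plxna1* at 0.056. *Plxnb2*, a receptor of class 4 semaphorins, was at 143.4, 145.7, 159.8, 150.2 and 142.5 CPM in control and 144.7, 151.2, 153.4, 141.5 and 136.6 CPM in *WD1* cKO embryos. Control replicate 3 was its highest and *WD1* cKO replicate 5 its lowest library, and the log2 fold change was -0.028 (95% confidence interval -0.12 to 0.063). *Plxnb1*, the receptor of Sema4D, was at -0.077 and *Plxnb3* at 0.092. Both *Plxna3* and *Plxnb3* lie on the X chromosome, and the groups differed in the number of libraries with high *Xist*. With the level of *Xist* as a covariate their log2 fold changes were -0.049 and 0.11.

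*Plxnd1* was at 338.1, 343.5, 338.0, 331.8 and 315.1 CPM in control and 328.3, 338.9, 315.6, 317.2 and 304.8 CPM in *WD1* cKO embryos. Its highest library was control replicate 2 and its lowest *WD1* cKO replicate 5, with the ranges overlapping from 315.1 to 338.9 CPM. The log2 fold change was -0.055 with the smallest standard error of the family (0.038, 95% confidence interval -0.14 to 0.028).

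The co-receptors, too, had values from both groups intermixed. *Nrp1* was at 264.2, 270.0, 231.9, 230.2 and 249.5 CPM in control and 266.3, 246.2, 249.9, 237.0 and 224.3 CPM in *WD1* cKO embryos, with high and low libraries in both groups. Its log2 fold change was -0.026 (95% confidence interval -0.15 to 0.097). *Nrp2* had 97.2 to 114.5 CPM in control and 98.4 to 118.4 CPM in *WD1* cKO embryos and a log2 fold change of 0.057 (95% confidence interval -0.080 to 0.20).

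Libraries of the same group varied more for *Plxnc1* than for most members, and *Plxnc1* was chosen for a closer description after its values were seen. It was at 72.6, 69.8, 78.5, 104.0 and 112.8 CPM in control and 79.4, 78.6, 70.3, 100.4 and 93.4 CPM in *WD1* cKO embryos. Replicates 4 and 5 were above replicates 1 to 3 in both groups, at 93.4 to 112.8 CPM against 69.8 to 79.4 CPM. The mean difference on the log2 scale was 0.56 in control and 0.35 in *WD1* cKO embryos. The labels do not say what the numbers stand for, and this split was known from earlier results of these data, so no test is given. *Sema6a*, *Plxna2* and *Plxna3* were lower in replicates 4 and 5 in both groups, so 1 of 31 members was higher and 3 of 31 were lower by this description, against 8.24% and 7.15% of all genes. Some marker genes were also split between these replicates, in either direction, and the others overlapped. In replicates 4 and 5 of both groups, all 4 blood markers were lower. The endothelial sum was lower there too, at 222.7 to 233.5 CPM against 243.0 to 277.5 CPM, but of its 5 genes only *Cdh5* was lower and the others overlapped. Of the 6 nociceptor markers 3 were higher there (*Calca*, *Tac1* and *Trpv1*) and 1 was lower (*Prdm12*). Of the 8 neuronal markers 1 was higher and 3 were lower. Of the 7 glial markers 2 were higher and 1 was lower, and of the 6 connective tissue markers 2 were lower. Macrophage markers had 1 of 4 higher and A-LTMR markers 1 of 6 lower, while proprioceptor, muscle and spinal cord markers all overlapped. The part of these markers in the differences was not tested. Within replicates 1 to 3 the genotype difference of *Plxnc1* was 0.045, and within replicates 4 and 5 it was -0.16 on the log2 scale. For *Sema7a* the same values were -0.21 and -0.24. They were -0.27 and 0.11 for *Sema6c*, 0.084 and -0.26 for *Sema3e*, and -0.014 and 0.38 for *Sema6b*, each with an adjusted p of at least 0.716 in edgeR with Benjamini-Hochberg adjustment.

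**Figure D4:**
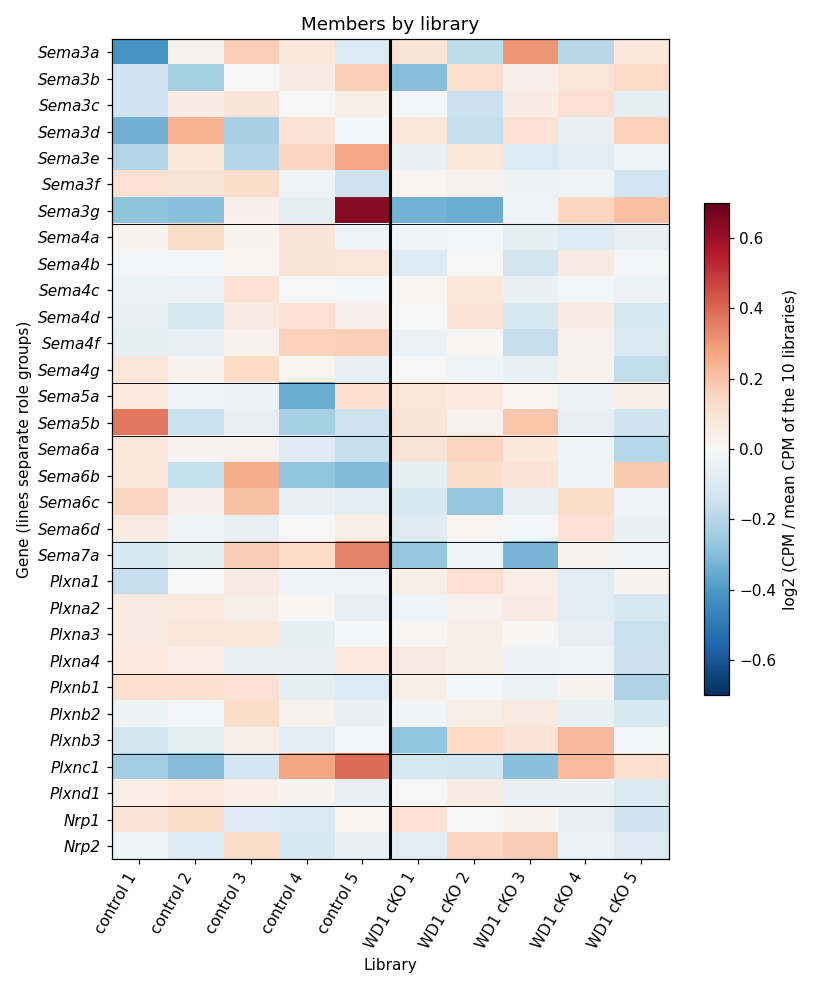
Level of each member in each library relative to the mean of the 10 libraries, as log2 of the CPM ratio on a colour scale from -0.7 to 0.7, with a vertical line between the groups and horizontal lines between role groups. *Sema3g* in control replicate 5 has a strong colour. In *Plxnc1*, replicates 4 and 5 of both groups lie above the mean of the 10 libraries and replicates 1 to 3 below it.

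The machinery around these receptors was described by a list of 36 genes, all of which passed the filter. None passed an adjusted p-value of 0.05 and 0 had an unadjusted p-value under 0.05 in edgeR (all genes 4.5%), while DESeq2's Wald test gave 1 without adjustment. Their log2 fold changes ran from -0.14 for *Rnd1*, a small GTPase that binds plexins, to 0.18 for *Met*, a receptor tyrosine kinase that associates with B plexins, with 21 below and 15 above 0 and a median of -0.013. Of the 5 CRMP genes, which encode cytoplasmic relays of semaphorin signals, 4 were below 0 (*Dpysl5* at -0.14, *Dpysl4* at -0.11, *Crmp1* at -0.058 and *Dpysl3* at -0.032), and *Dpysl2* was at 0.075. The 3 MICAL genes, oxidoreductases that bind A plexins and act on actin, lay between -0.041 for *Mical1* and 0.020 for *Mical3*. Among 12 adhesion molecules and other co-receptors 5 were below and 7 above 0. They included *L1cam*, a partner of neuropilin in the response to Sema3A, at -0.058, and its gene lies on the X chromosome. Kinases (5 genes) and small GTPases with their exchange factors and cofilin (11 genes) had 3 and 7 genes below 0.

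The counting of 4 members was uncertain where annotated genes overlap on the opposite strand, because the strand setting of the counting is not given in the sources used here. The overlap covered 10.7% of the exon length of *Plxna1*, 7.27% of *Sema4c*, 2.68% of *Plxnb1* and 0.78% of *Plxna4*. Overlaps on the same strand, which do not depend on that setting, covered 1.38% of *Plxnc1*, 1.35% of *Sema4a* and 0.82% of *Nrp1*.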

How the data were processed

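Stranded mRNA libraries were made from whole DRG of 10 embryos (E18.5), 5 control and 5 *WD1* cKO. The authors converted reads with bcl2fastq 2.20.0.422, aligned them to GRCm39 with STAR 2.7.8a and used featureCounts 2.0.1 to count reads in genes. They deposited the raw count of each gene in each library. Symbols and exon lengths were taken from the GENCODE annotation of GRCm38, which matched 52081 and 52133 of the 55414 identifiers, and promoters from RefSeq on GRCm38.p6. No gene coordinates on GRCm39 were used here.

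The counts were compared with edgeR 4.0.16 (R 4.3.3). The 17490 genes that reached 10 counts in 5 or more libraries were scaled by TMM and compared by the quasi-likelihood test without block or covariate, and p-values were adjusted by the Benjamini-Hochberg method over all of them. Exact permutation tests were two-sided and used log2 CPM (prior count 1). The code was tested on simulated data. Members and gene lists were chosen with earlier results of these data known. Every member is named, and values in every library are given for members with an unadjusted p-value under 0.05 and for the highest member per length of each of 9 role groups. Other single libraries were described after their values were seen. Chi-square per degree of freedom between libraries of a group was 4.33 to 15.7, above sampling noise, so each counted as 1 replicate. The alternatives were DESeq2 1.42.0 (Wald test), its size factors in edgeR, a mean count of 100 or more or no filter on low counts, the replicate number taken as a block, replicates 1 to 3 against 4 and 5 as a covariate or fitted apart, *Xist* as a covariate, each library left out in turn, unscaled CPM, and the longest transcript as length. The single-cell, staining and behavioural data of the study were not analysed here.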

Additional observations from a re-analysis of the deposited data

Results flagged for a closer look

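In 4 of 62 groups of 5 libraries, a single library lay far from the other 4 by Dixon's gap, which chance alone exceeds in about 1 in 20 groups. *Sema3b* was at 58.3 CPM in *WD1* cKO replicate 1 and at 73.3 to 78.5 CPM in *WD1* cKO replicates 2 to 5. *Sema3g* was at 28.6 CPM in control replicate 5 and at 15.0 to 18.9 CPM in the other controls, and without this library its log2 fold change was 0.093 instead of -0.10. In the same library the summed muscle markers were 161.2 CPM, against 21.6 to 99.8 CPM in the other controls. Also outside the other controls were its nociceptor sum (3004 against at most 2964 CPM), A-LTMR sum (300.6 against at least 313.5 CPM) and macrophage sum (45.4 against at most 44.1 CPM). Single genes did not all follow these sums, and the nociceptor marker *Prdm12* was lowest in this library among the controls (157.9 CPM). The part of these markers in the level of *Sema3g* was not tested. On average *Sema3g* was also higher in replicates 4 and 5 than in 1 to 3, by 0.50 in control and 0.41 in *WD1* cKO embryos on the log2 scale. The ranges, 17.6 to 28.6 and 14.5 to 18.9 CPM, overlapped. *Sema4c* was at 51.4 CPM in control replicate 3, the library outside the range of the others in the spinal cord and 5 other marker sums, and at 46.6 to 47.8 CPM in the other controls. The part of these markers in the level of *Sema4c* was not tested. *Sema5b* was at 23.1 CPM in control replicate 1 and at 15.2 to 17.1 CPM in the other controls, and without this library its log2 fold change was 0.17 (unadjusted p = 0.0366, adjusted p = 1.00 from edgeR with Benjamini-Hochberg adjustment).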

How the results depend on the processing

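The number of members with an adjusted p-value under 0.05 and the number past the study's cut-off were 0 in the main comparison and in all 19 alternatives. *Dach1* remained lower with an adjusted p-value under 0.05 in each of them, at -0.95 to -0.89 when single libraries were left out. The count of members lower with an unadjusted p-value under 0.05, 1 in the main comparison, was 4 of 31 with replicates 1 to 3 against 4 and 5 as a covariate (all genes 3.87%), 4 within replicates 1 to 3 (2.42%), 4 within replicates 4 and 5 (3.75%), 0 with *Xist* as a covariate (1.74%), and 0 to 3 when single libraries were left out (1.92% to 2.85%). The count of higher members was 1 within replicates 4 and 5 (2.63%) and 0 to 1 when single libraries were left out (1.63% to 2.77%). The count of genes of the 36-gene list, 0 in the main comparison, was 1 with DESeq2 (all genes in either direction 2.03%), 2 without the filter (4.03%), 3 with replicates 1 to 3 against 4 and 5 as a covariate (7.33%), 3 within replicates 1 to 3 (4.88%), 8 within replicates 4 and 5 (6.38%), and 0 to 5 when single libraries were left out (3.69% to 5.55%). With the longest transcript as length, 10 of 31 members kept their place in the order of levels.

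Samples of the same number were checked for pairing: the correlation of their deviations was 0.331, 0.0417, 0.320, 0.349 and 0.393 for numbers 1 to 5, and 3 of 5 control libraries correlated best with their own number, while control replicate 2 did so with *WD1* cKO replicate 1 and control replicate 4 with *WD1* cKO replicate 5. Since 1 of the 5 correlations was below 0.1 and the labels do not say what a number stands for, the numbers were not taken to pair the samples, although libraries of like number do share some deviation. With the replicate number as a block, 2 members were lower with an unadjusted p-value under 0.05 (all genes 3.62%) and 3 genes of the list of 36 had one (all genes in either direction 7.1%), with 0 members under an adjusted p-value of 0.05.

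The sign of 14 members was the same in all 19 alternatives, and 17 members, each with an unadjusted p-value of at least 0.142, changed sign at least once. Turned values of log2 fold change were 0.0060 for *Sema4c* and 0.0016 for *Sema6d* without the filter. Within replicates 1 to 3 they were 0.0014 for *Sema4c*, 0.084 for *Sema3e*, 0.0012 for *Plxna4*, 0.045 for *Plxnc1*, 0.030 for *Sema4d*, 1.48e-06 for *Plxnb2* and -0.014 for *Sema6b*. Within replicates 4 and 5 they were 0.0070 for *Sema6d*, 0.11 for *Sema6c*, -0.035 for *Sema3a*, -0.0022 for *Plxna1*, -0.0020 for *Sema3b* and 0.00023 for *Sema3f*. With *Xist* as a covariate they were 0.021 for *Sema4c*, -0.033 for *Sema3d* and 0.019 for *Sema4d*. Leaving out single libraries gave ranges of -0.023 to 0.022 for *Sema4c*, -0.036 to 0.011 for *Sema6d*, -0.0033 to 0.14 for *Sema3d*, -0.12 to 0.0037 for *Sema3e*, -0.058 to 0.0090 for *Sema3c*, -0.0091 to 0.13 for *Sema3a*, -0.13 to 0.052 for *Plxnc1*, -0.058 to 0.0046 for *Nrp1*, -0.18 to 0.093 for *Sema3g*, -0.0023 to 0.11 for *Sema3b*, -0.053 to 0.0031 for *Sema4d* and -0.049 to 0.00035 for *Plxnb2*. The causes were not tested. *Sema3a* had the fewest counts, 76 to 185 a library, with a standard error of 0.128, while the largest standard error was that of *Sema3g* (0.175).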

Other observations

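Members differed widely in their spread between libraries of a group. The median coefficient of variation of the 31 members was 6.71% in control and 6.38% in *WD1* cKO embryos, against 8.57% and 7.54% over all genes tested. Compared with genes of like level (mean CPM between 0.5 and 2 times their own), 21 of 31 members in control and 24 of 31 in *WD1* cKO embryos were above the median spread, and the median percentile of the members was 66.9 and 71.4. *Plxnc1* varied by 22.4% in control and 14.5% in *WD1* cKO embryos, at the 99.0th and 97.6th percentile of 4426 genes of like level. *Sema3g* varied by 29.2% and 17.9%, at the 98.0th and 95.3rd percentile of 4707 such genes. *Sema4a*, a transmembrane semaphorin with 14.5 to 16.1 CPM in control and 13.8 to 14.6 CPM in *WD1* cKO embryos, varied by 4.30% and 2.41%, at percentiles 12.3 and 2.62 of 4308 such genes. These percentiles describe these libraries, and *Plxnc1*, *Sema3g* and *Sema4a* were chosen after their values were seen.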
